A study of Mus musculus with 8 samples.

Results

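CpG island methylation was compared between Smchd1 matΔ and Smchd1 wt mouse embryonic stem cells (mESCs) at day 2.5 of differentiation, 12 h after the Wnt pathway was activated. The members were all autosomal CpG islands in the deposited table of islands that had a value in all 8 libraries of the series, which were 7454 of 13213 autosomal islands listed and of 13840 islands listed in all. The question was which islands and loci separated the genotypes at this time.

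The 4 libraries of day 2.5 came from 2 male lines of each genotype, and the 4 libraries of the same lines at day 2, before Wnt activation, are given beside them. Smchd1 wt cells were Smchd1 fl/+, and Smchd1 matΔ cells were Smchd1 del/+, with the deletion made in the oocyte by Zp3-Cre. Both carried a wild-type paternal allele and were kept in medium with basic FGF. A matΔ line had lacked the oocyte's SMCHD1 and was still heterozygous for the gene at day 2.5, and these 2 states cannot be told apart in this comparison. The lines were derived from separate blastocysts and each line gave 1 library per day, so each group had only 2 lines. The test of single islands (limma) pools the spread between lines over the 4 groups of both days and moderates it across islands. It treats the libraries of 1 line at day 2 and day 2.5 as independent.

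SMCHD1 is a chromatin protein of the SMC family that takes part in X inactivation, genomic imprinting and the silencing of clustered genes such as the Hox and protocadherin genes. The protein stored in the oocyte acts in the early embryo before the embryo makes its own. CpG islands are short stretches rich in CpG that hold most gene promoters and are usually free of DNA methylation, while islands inside genes, in repeats and at imprinted or germline genes are often methylated. Differentiation to neuromesodermal progenitors (NMPs), which give rise to spinal cord and trunk mesoderm, is driven here by CHIR99021, an inhibitor of the kinase GSK3 that switches on canonical Wnt signalling.

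Reduced representation bisulfite sequencing (RRBS) reads DNA that was cut by a restriction enzyme at CCGG, so an island is sampled near its CCGG sites. The median autosomal island had 11 CCGG sites and 86 CpGs, and all 7454 had at least 1 CCGG site (100%). Sequence is shown for 6 islands on which the results turn, with CCGG in capitals, from the forward strand of GRCm38.p6 as given by RefSeq and as a window of 300 bases that avoids annotated UTRs. The islands of Tmem259, Pard6b and Speg were among those furthest above wild type, with windows at chr10:79977466-79977765, chr2:168098469-168098768 and chr1:75375459-75375758. The Daxx island was the furthest below wild type, with its window at chr17:33911714-33912013. The islands near Gm11795 and in Papln were higher at both days, with windows at chr4:7733754-7734053 and chr12:83771906-83772205.
Tmem259: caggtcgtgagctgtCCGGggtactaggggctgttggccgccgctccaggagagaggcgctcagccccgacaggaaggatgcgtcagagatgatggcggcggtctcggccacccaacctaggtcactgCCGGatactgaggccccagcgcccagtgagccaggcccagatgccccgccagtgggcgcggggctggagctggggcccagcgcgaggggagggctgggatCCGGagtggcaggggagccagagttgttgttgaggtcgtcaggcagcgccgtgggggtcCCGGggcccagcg
Pard6b: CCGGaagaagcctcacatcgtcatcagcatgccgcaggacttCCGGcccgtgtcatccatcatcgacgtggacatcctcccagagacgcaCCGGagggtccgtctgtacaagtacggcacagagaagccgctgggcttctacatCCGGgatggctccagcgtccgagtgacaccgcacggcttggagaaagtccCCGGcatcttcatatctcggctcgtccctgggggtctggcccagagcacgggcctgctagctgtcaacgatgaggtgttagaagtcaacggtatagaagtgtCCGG
Speg: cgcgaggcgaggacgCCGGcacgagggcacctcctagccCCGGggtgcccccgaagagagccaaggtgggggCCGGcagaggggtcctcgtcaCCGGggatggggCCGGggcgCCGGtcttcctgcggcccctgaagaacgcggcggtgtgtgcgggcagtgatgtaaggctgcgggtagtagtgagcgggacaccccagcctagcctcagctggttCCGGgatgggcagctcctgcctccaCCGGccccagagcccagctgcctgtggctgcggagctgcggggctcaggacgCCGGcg
Daxx: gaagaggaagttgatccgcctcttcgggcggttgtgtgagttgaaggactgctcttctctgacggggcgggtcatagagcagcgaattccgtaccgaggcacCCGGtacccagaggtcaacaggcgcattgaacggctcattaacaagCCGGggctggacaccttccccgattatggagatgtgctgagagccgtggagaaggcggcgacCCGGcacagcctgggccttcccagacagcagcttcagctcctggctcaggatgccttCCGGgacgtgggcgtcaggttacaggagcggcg
Gm11795: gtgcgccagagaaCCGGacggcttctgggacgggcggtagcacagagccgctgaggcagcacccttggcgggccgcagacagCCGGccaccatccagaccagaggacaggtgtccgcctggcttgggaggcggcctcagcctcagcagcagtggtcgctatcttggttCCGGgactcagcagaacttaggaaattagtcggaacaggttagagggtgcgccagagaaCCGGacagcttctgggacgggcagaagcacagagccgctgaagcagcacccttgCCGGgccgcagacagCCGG
Papln: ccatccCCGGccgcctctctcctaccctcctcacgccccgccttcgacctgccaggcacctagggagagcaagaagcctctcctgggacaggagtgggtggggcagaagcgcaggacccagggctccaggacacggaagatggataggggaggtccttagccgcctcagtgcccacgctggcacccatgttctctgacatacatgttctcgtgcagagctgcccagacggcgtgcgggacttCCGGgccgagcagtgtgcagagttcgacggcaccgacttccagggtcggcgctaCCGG

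The windows held from 3 CCGG sites in Papln to 9 in Speg. The Papln island had no CCGG site outside its window, and the Daxx island had 5 in all, so these values rest on few cut sites. The Gm11795 island was 97.7% soft-masked in the genome sequence, that is, marked as repeat or low-complexity DNA, whereas the Tmem259, Pard6b, Speg, Daxx and Papln islands were at most 9.90% soft-masked.

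Methylation was low at most islands in both genotypes. At day 2.5 the median island was at 0.346% and 0.307% in the wt lines and at 0.267% and 0.284% in the matΔ lines, and the mean over all islands was 1.41% and 1.40% in wt and 1.55% and 1.38% in matΔ. The library of matΔ line 1 stood apart through its methylated islands. Over the 166 islands with a mean of at least 10% in the 8 libraries it averaged 37.0%, against 32.7% and 33.3% in the wt lines and 32.8% in matΔ line 2. With it, the matΔ mean of these islands was 1.86 percentage points above wt (exact permutation test, two-sided, p = 0.667, where 2 against 2 cannot go below 0.333), and without it the difference was -0.268. The depth per island was unknown, because the values are percentages without read counts, so no interval from counting is given.

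No single island passed the test at day 2.5. With limma across all islands that varied, 0 of 7196 passed an adjusted p of 0.05 (0.0%), the smallest adjusted p was 0.359, and 309 islands (4.29%) had an unadjusted p under 0.05. Of these, 166 were higher in matΔ (2.31%) and 143 lower (1.99%). At day 2 it was also 0 (0.0%), with 303 islands (4.21%) at an unadjusted p under 0.05. Leaving out 1 of the 4 libraries gave 73 to 121 calls. In 64 to 113 of these the lone remaining library of its genotype was the only library of the fit above 0, and 1 call in all fell among the 60 islands that separate the genotypes by at least 5 points. The difference between the days, tested as an interaction, also gave 0 calls (0.0%), with 336 islands (4.67%) at an unadjusted p under 0.05. The islands below are therefore described by their values, and none is called changed.

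At day 2.5 both matΔ lines were above both wt lines at 850 islands (11.4%), and both were below at 975 (13.1%). Most of these differences were small. With a difference of means of at least 5 percentage points, 42 islands were higher in matΔ (0.563%) and 18 were lower (0.241%), 60 in all (0.805%). With at least 10 points, 11 were higher (0.148%) and 2 were lower (0.0268%). Whether or not the libraries overlapped, the genotype means differed by at least 5 points at 106 islands. The single libraries of 1 genotype, which vary more than means of 2, differed from each other by at least 5 points at 177 islands in wt and 201 in matΔ. At day 2 the same limits gave 44 higher islands (0.59%) and 19 lower (0.255%). Just inside the limit of 5 points lay islands at Zfp503, with a difference of 5 points, and Scarf2, with 5.08, and just outside it lay those at Fkbp9, with 4.98, and 3110070M22Rik, with 4.91.

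**Figure D1:**
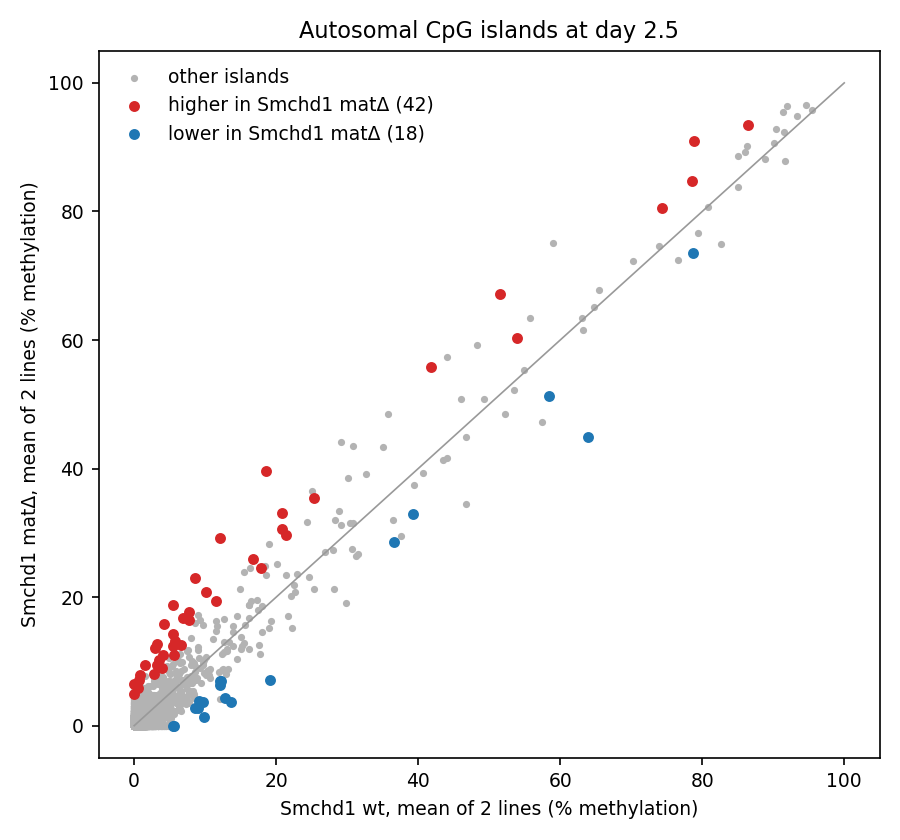
Mean percent methylation of each autosomal CpG island at day 2.5 in Smchd1 wt (x axis) and Smchd1 matΔ (y axis), each the mean of 2 lines, with the line of equality. Red points are the 42 islands at which both matΔ lines were above both wt lines by at least 5 points on average, blue points the 18 at which both were below, and most grey points sit near 0 on both axes.

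The 3 largest differences above wild type lay at islands over exons of Tmem259, Ankrd13b and Pard6b. The island named after Tmem259, which encodes the membrane protein membralin, also covers exons of the neighbouring NMDA receptor subunit gene Grin3b (chr10:79976710-79977771). It was at 17.5% and 19.6% in the wt lines and at 42.5% and 36.7% in the matΔ lines. The difference was 21 ± 14.2 points (SE, limma, adjusted p = 0.963), and at day 2 the genotypes overlapped, with a difference of 10.4.

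The exonic island of Ankrd13b (chr11:77471491-77471906), which encodes an ankyrin repeat protein that binds ubiquitin, was at 7.42% and 16.7% in wt and at 33.3% and 25% in matΔ. Its difference was 17.1 ± 5.81 points (SE, limma, adjusted p = 0.960) at day 2.5 and -0.537 at day 2, where the 4 libraries lay between 12.5% and 15%. The change between the days was 17.7 ± 8.21 points (SE, limma interaction, adjusted p = 0.867).

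Pard6b encodes a subunit of the PAR complex that sets cell polarity. An island inside its coding sequence (chr2:168098448-168099088) was at 57.4% and 45.7% in wt and at 68.3% and 66.1% in matΔ, a difference of 15.6 ± 12.8 points (SE, limma, adjusted p = 0.963). At day 2 matΔ line 1 was at 72.9% and the other 3 libraries lay between 47.7% and 55.9%.

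An island named after Oaz1, whose start is the nearest, lies wholly in the coding exon of Lingo3, a gene for a leucine-rich repeat membrane protein (chr10:80834350-80836042). It was at 42.5% and 41.2% in wt and at 56.8% and 54.8% in matΔ at day 2.5, with both pairs of lines close together. The difference was 14 points at day 2.5 and 13 at day 2, but at day 2 the wt lines were at 29.8% and 48.4% and the matΔ lines at 58.0% and 46.2%, so the genotypes overlapped.

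At the start of Ppp1r36, which encodes a regulatory subunit of protein phosphatase 1 (chr12:76417460-76417899), the wt lines were at 6.48% and 4.55% and the matΔ lines at 20.8% and 16.7%. The difference was 13.2 ± 3.11 points (SE, limma, adjusted p = 0.667) at day 2.5 and 0.692 at day 2. The coding island of Nkpd1, a gene for an NTPase of the KAP family (chr7:19522932-19524694), was at 3.88% and 4.53% in wt and at 19% and 12.8% in matΔ, a difference of 11.7 ± 3.25 points (SE, limma, adjusted p = 0.849). Both islands had low, closely matched wt lines at day 2.5.

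At some islands among the largest differences matΔ line 1 was well above matΔ line 2. The coding island of the sialyltransferase gene St8sia5 was at 20% and 21.6% in wt, 44.4% in matΔ line 1 and 21.7% in matΔ line 2. The island of the myosin gene Myo15b was at 13% and 7.41% in wt and at 28.2% and 13.3% in matΔ. That of the extracellular matrix gene Papln was at 26.2% and 24.5% in wt and at 40% and 30.8% in matΔ, and that of K230010J24Rik at 7.64% and 7.89% in wt and at 21.1% and 14.3% in matΔ. Across the 42 higher islands matΔ line 1 was above matΔ line 2 at 30, below it at 10 and equal to it at 2. Among the 18 lower islands it was above at 6, below at 9 and equal at 3. At St8sia5 and Myo15b matΔ line 2 was close to the nearest wt line, while at Papln and K230010J24Rik it was also apart from both wt lines. The part of this library in the higher values was not tested further than by leaving it out, which gave 71 higher and 48 lower islands by at least 5 points against 42 and 18. With 1 library fewer there are fewer values to overlap, so counts without a library are larger by construction.

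**Figure D2:**
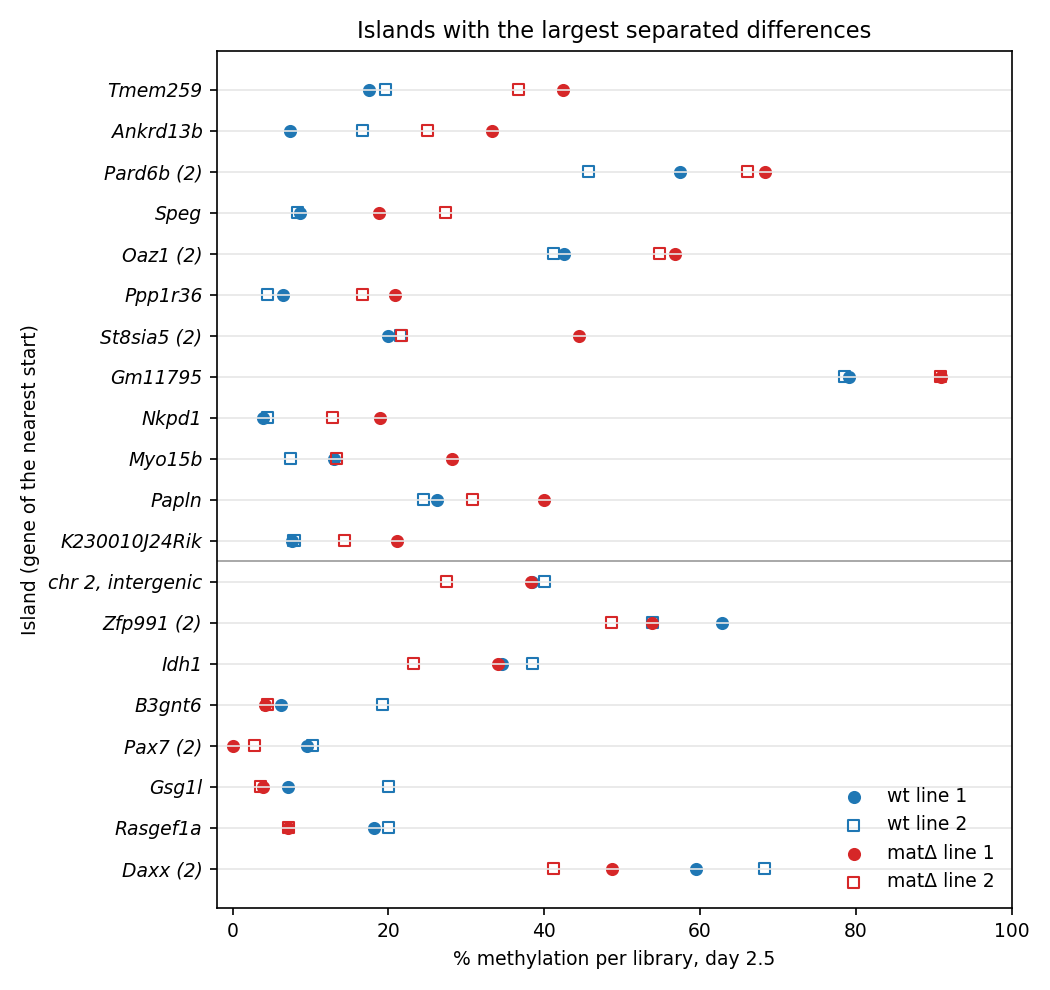
Percent methylation at day 2.5 of the 12 islands with the largest separated differences above wild type (upper part) and the 8 with the largest below it (lower part). Each symbol is 1 library, wt in blue and matΔ in red, with filled circles for line 1 and open squares for line 2. The genotypes are far apart at Tmem259 and Daxx, while at St8sia5, Myo15b, Zfp991 and Idh1 the nearest lines of the genotypes almost touch.

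Speg was the only gene with several of the 60 islands within 100 kb in the same direction. It encodes a protein kinase of striated muscle and has 4 islands with values on chromosome 1. The first, at a transcript start (chr1:75375226-75375786), was at 8.70% and 8.33% in wt and at 18.8% and 27.3% in matΔ, a difference of 14.5 ± 4.80 points (SE, limma, adjusted p = 0.960). The third, in a coding exon (chr1:75387986-75389104), was at 5.56% and 5.66% in wt and at 14.2% and 7.72% in matΔ. The last (chr1:75421989-75423440), wholly coding and near the start of a shorter transcript, was at 5.34% and 8.33% in wt and at 24.1% and 9.43% in matΔ. The second island, at another start (chr1:75381925-75382387), stayed near 0, at 0.549% and 0% in wt and 2.86% and 0% in matΔ. The difference at the last island was 9.93 points at day 2.5. The higher matΔ line was line 2 at the first island and line 1 at the last. At day 2 the differences at the 4 islands in genomic order were 5.52, -0.223, 1.58 and 0.989 points, and only the first was separated.

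Fewer islands were lower than higher. The largest difference lay in Daxx, which encodes a histone H3.3 chaperone, at a wholly coding island 676 bases from an annotated start (chr17:33911574-33912013). It was at 59.5% and 68.3% in wt and at 48.7% and 41.2% in matΔ, a difference of -18.9 ± 19.8 points (SE, limma, adjusted p = 0.984). The error, which is estimated over both days, exceeded the difference, and at day 2 the matΔ lines were at 62.5% and 17.9%. The other Daxx island, over the start, was at most 0.996% in the 4 libraries.

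The start of Rasgef1a, a gene for an exchange factor of Ras proteins (chr6:118011302-118011798), was at 18.2% and 20% in wt and at 7.14% in both matΔ lines, a difference of -11.9 ± 3.63 points (SE, limma, adjusted p = 0.942). The start of Gsg1l, which encodes an auxiliary subunit of AMPA receptors, was at 7.14% and 20% in wt and at 3.85% and 3.57% in matΔ. The coding island of the glycosyltransferase gene B3gnt6 was at 6.25% and 19.2% in wt and at 4.17% and 4.55% in matΔ. At the latter 2 islands wt line 2 carried most of the difference.

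Pax7 encodes a transcription factor of neural crest and muscle progenitors. Its second island, over an exon 4309 bases from the start (chr4:139828039-139828698), was at 9.52% and 10.3% in wt and at 0% and 2.78% in matΔ, a difference of -8.50 ± 1.39 points (SE, limma, adjusted p = 0.466). The islands on either side of it, in an intron and over the start, were at most 1.37% in every library of day 2.5. At day 2 the second island lay between 0% and 4.17%.

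The other 3 of the largest negative differences were at intermediate levels. At the start of Idh1, which encodes a cytosolic isocitrate dehydrogenase, wt lines were at 34.6% and 38.4% and matΔ lines at 34.1% and 23.2%. An intronic island whose nearest start is Zfp991 was at 62.8% and 53.9% in wt and at 53.8% and 48.7% in matΔ. An intergenic island with no start within 100 kb (chr2:53761977-53762768) was at 38.4% and 40% in wt and at 38.3% and 27.5% in matΔ. In each, 1 matΔ line lay within 1 point of the nearest wt line.

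Of the 42 higher islands, 19 were named by the rule for single description and 23 were not; of the 18 lower islands, 9 were and 9 were not. The 23 ranged from the last Speg island, at 9.93 points, down to the island at Zfp503. Transcription factor genes among them were En1, with 6.35% and 4.60% in wt and 9.70% and 15% in matΔ; Cux2, Zfhx3 and Zfp503 had differences of 8.76, 6.73 and 5 points. Genes of channels and receptors were Grin2d, whose exons share the island of Gm45441 (9.45 points), Scnn1b (9.12), the opioid receptor gene Oprd1 (8.72) and the cation channel gene Trpv4 (6.89). Cell adhesion and surface genes were Lrrc4b, whose coding exon holds the island named after Aspdh (9.30), the cadherin gene Celsr1 (6.99), Sez6l (6.46) and Scarf2. Celsr1 was the most methylated of the 42, with 85.3% and 87.5% in wt and 90.6% and 96.2% in matΔ. The rest were the third Speg island (5.35), Espn (8.17), Gipc3 (7.90), Abhd8 (7.84), Hsd17b7 (7.41), Neurl1b (6.63), Mitd1 (6.22), Tmem132d (5.65), Ogfod2 (5.36) and Tmem102 (5.11 points). This grouping by function was made after the values were seen.

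The 9 lower islands not named by the rule had differences from -6.18 points at Rin3 to -5.11 at Sbspon. At Slc4a1ap the wt lines were at 7.84% and 3.33% and both matΔ lines at 0%. Others were Ltbr (-6.09), Ascl5 (-5.89), Nrbp2 (-5.76), Shisa8 (-5.24), an intergenic island nearest Gtdc1 (-5.20), Rin3 and Sbspon. Nrbp2 lay within 100 kb of the higher island at K230010J24Rik on chromosome 15, with the opposite direction.

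Few of the 60 islands held the same separation at day 2. Of the 42 higher islands, 33 had a difference of the same sign at day 2 and 9 of the opposite sign. The genotypes were separated in the same direction at 10 of them and in the opposite direction at 4. Their median difference was 7.87 points at day 2.5 and 2.30 at day 2. The 18 lower islands were split evenly, 9 of each sign, with 3 separated in the same direction and 3 in the opposite one, and their median was -6.13 points at day 2.5 and -0.0074 at day 2. Over all 7454 islands 269 (3.61%) were separated in the same direction at both days and 241 (3.23%) in opposite directions. Those islands come from the 850 higher and 975 lower ones separated at day 2.5. Both percentages count every island, whereas the 60 were already separated at day 2.5, so they are not like shares. The differences of the days had a Pearson r of 0.203 across the 7454 islands and of 0.246 across the 166 islands with a mean of at least 10%, where islands are not independent and the days share lines.

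Islands separated by at least 5 points in the same direction at both days numbered 9 above wild type, which was 21.4% of the day 2.5 list and 20.5% of the day 2 list, and 2 below it, 11.1% and 10.5%. The clearest was an intergenic island 25546 bases from the start of the gene model Gm11795 (chr4:7733691-7734124). At day 2.5 it was at 79.2% and 78.6% in wt and at 90.9% in both matΔ lines. At day 2 it was at 79.2% and 73.8% in wt and at 92.3% and 89.9% in matΔ. The difference of 12 ± 2.01 points at day 2.5 exceeded the spread of the lines at both days, but its adjusted p was 0.466 (limma).

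Gata2 encodes a transcription factor of blood and neural progenitors. The island at one of its starts (chr6:88193562-88194598) was at 5.26% and 7.99% in wt and at 13.5% and 11.6% in matΔ at day 2.5, and at 1.95% and 6.03% in wt and 7.55% and 10.6% in matΔ at day 2. Its second island differed by only 0.892 points. The exonic island of Nkx2-5, a heart transcription factor gene (chr17:26838632-26839820), was lower in matΔ at both days, at 9.80% and 14.6% in wt against 6.67% and 7.14% at day 2.5, and at 11.1% and 10% against 3.51% and 6.67% at day 2. Its neighbour at the start of Nkx2-5 was at 53.3% and 43.2% in wt and at 53.1% and 65.4% in matΔ, where the genotypes overlapped.

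The other islands higher at both days were Speg, St8sia5, Papln, the purine receptor gene P2ry2, Yjefn3, an intergenic island near Scpep1os and Peg13. The excess in matΔ at P2ry2 was 6.51 points, after 10.8 at the earlier day, and that at Yjefn3 was 9.75 after 14.5. The Scpep1os island had 6.29 after 6.93. Peg13, an imprinted non-coding RNA gene, was at 0% and 1.39% in wt and at 12.2% and 1.96% in matΔ at day 2.5, and at 2.38% and 5.88% in wt and 18.2% and 21.9% in matΔ at day 2. Its difference thus was 6.40 points at day 2.5, carried by matΔ line 1, against 15.9 at day 2. The other island lower at both days was that nearest Zfp991, with -7.10 points at day 2.5 and -8.92 at day 2.

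**Figure D3:**
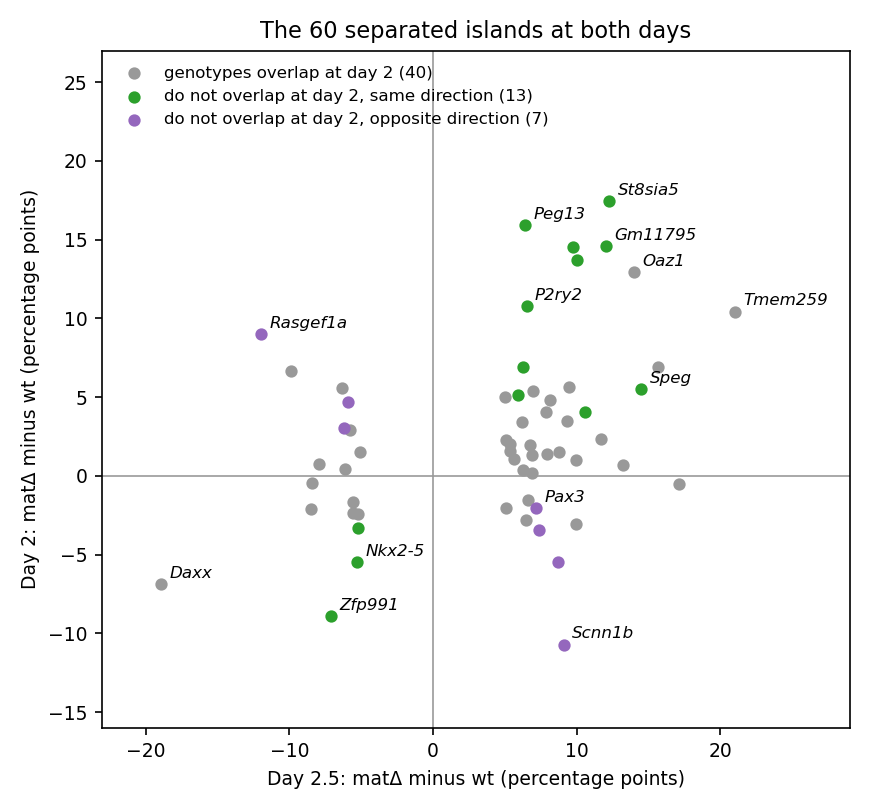
Difference between the genotypes (matΔ minus wt, percentage points, means of 2 lines) at day 2.5 (x axis) and day 2 (y axis) for the 60 islands separated by at least 5 points at day 2.5. Colours give the state at day 2, where the genotypes overlapped at 40 islands, were separated in the same direction at 13 and in the opposite direction at 7; the empty band between -5 and 5 on the x axis follows from the choice of the islands.

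The separated islands differed from the rest in level and position. None of the 60 had a mean under 1% over the 8 libraries, although 6217 of the 7454 islands did (83.4%), and at such a mean a difference of 5 points cannot arise. The median of the mean level was 12.5% for the 42 higher islands, 9.35% for the 18 lower ones and 0.406% for all. Of the higher islands 22 lay at promoters, within 1 kb of a transcript start (52.4%, against 93.4% of all islands), 17 over exons away from starts (40.5%, against 2.99%), 1 in an intron and 2 between genes. Of the lower ones 11 were at promoters (61.1%), 4 over exons (22.2%), 1 in an intron and 2 between genes. Coding sequence made up at least 50% of the island at 23 of the 42 higher islands (54.8%) and 6 of the 18 lower ones (33.3%), against 843 of all islands (11.3%). The higher islands were also shorter than the median island, with 602 against 806 bases, and had fewer CpGs, with 53.5 against 86, and CCGG sites, with 7 against 11. The lower ones had medians of 585.5 bases, 56 CpGs and 8 CCGG sites. These features go with level and number of cut sites, and their part in the differences was not tested.

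Among islands with a mean of at least 10%, those over exons were separated by at least 5 points only upwards. Of 59 such exonic islands 12 were higher in matΔ (20.3%) and 0 lower, and of 63 promoter islands 8 were higher (12.7%) and 6 lower (9.52%). Of all 166 islands at this level 23 were higher and 9 lower. At day 2 the exonic islands gave 13 higher and 1 lower, and all 166 islands gave 28 and 7. However, the day 2 library of matΔ line 1 stood apart too. It had a mean of 36.0% over the 59 exonic islands against 27.7% and 24.9% in wt and 28.1% in matΔ line 2. The mean of the 59 at day 2.5 was 27.5% and 26.9% in wt and 33.6% and 26.9% in matΔ, so matΔ line 2 did not exceed the wt lines. The difference of 3.08 points (exact permutation test, two-sided, p = 0.667) was -0.246 without matΔ line 1. Over all 223 exonic islands the mean was 9.32% and 9.0% in wt and 11.1% and 9.08% in matΔ, a difference of 0.940 points (exact permutation p = 0.667), and over 6960 promoter islands it was 0.831% and 0.816% against 0.896% and 0.804% (exact permutation p = 1). Intronic and intergenic islands differed by -0.336 and 0.267 points (exact permutation p = 1 and 0.667). In none of the 4 classes did the genotypes separate.

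**Figure D4:**
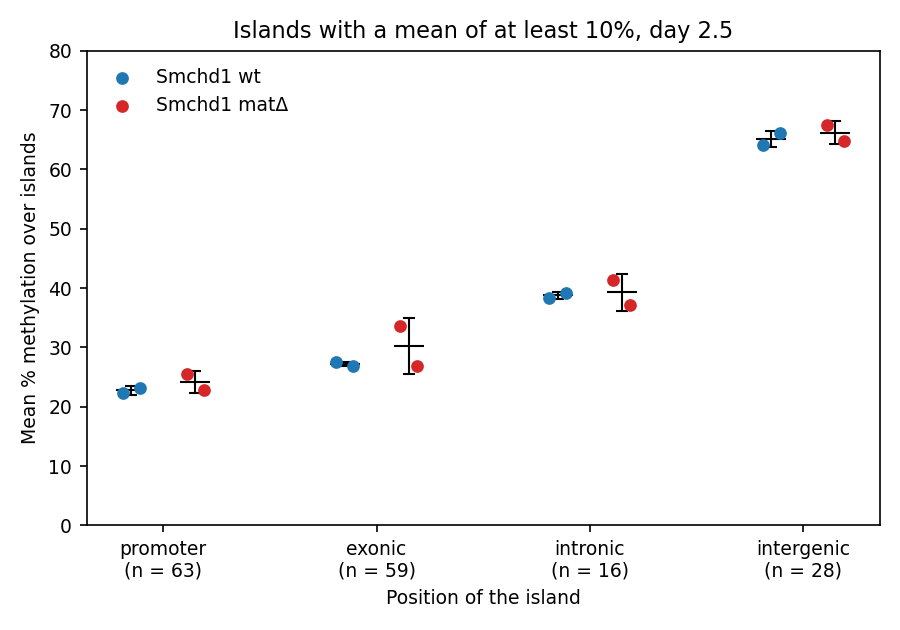
Mean percent methylation at day 2.5 over the 166 islands with a mean of at least 10%, by position, with 1 point per library and bars for the mean and SD of 2 lines (wt in blue, matΔ in red). In each class matΔ line 1 is above both wt libraries, while matΔ line 2 is between them or, for the intronic islands, below them.

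Over 50% of the sequence was soft-masked at 35 of the 7454 islands (0.470%), at 2 of the 42 higher islands (4.76%) and at 2 of the 18 lower ones (11.1%). The mean of the 35 was 61.0% and 63.6% in wt and 65.0% and 61.8% in matΔ. The 4 among the 60 were 11.4% of the 35, against 0.805% of all islands. However, the 35 were mostly methylated, with a median level of 67.1% over the 8 libraries. Of the 38 islands with a mean of at least 50%, 6 were higher (15.8%) and 2 lower (5.26%) by at least 5 points. The part of level in the share of the 35 was not tested. The 4 were Gm11795 and Scpep1os above wild type and the islands nearest Gtdc1 and on chromosome 2 without a near gene below it. Methylated repeats held differences in both directions.

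The smallest p-values fell on islands that were at or near 0 in wild type. The island at the start of Lmo1, which encodes a LIM-domain transcriptional regulator (chr7:109174701-109175336), was at 0% in both wt lines and at 3.33% and 4.17% in matΔ, and it was at 0% in all 4 libraries of day 2. The difference was 3.75 ± 0.396 points (SE, limma, adjusted p = 0.359). Pax3, a paralogue of Pax7 with roles in neural tube and neural crest, was at 1.59% and 0% in wt and at 6.67% and 9.26% in matΔ at its start (chr1:78196632-78197287), a difference of 7.17 ± 0.970 points (SE, limma, adjusted p = 0.466). At day 2 the Pax3 island was lower in matΔ, at 0% in both lines against 1.85% and 2.22%.

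Skor1, Rasl10a and Nf1 completed the 5 smallest p-values. Skor1, a corepressor gene, was at 4.17% and 2.78% in matΔ, Rasl10a, a Ras-like gene, at 2.60% in both lines, and Nf1, which encodes a Ras GTPase-activating protein, at 1.92% and 2.00%, and all 3 were at 0% in both wt lines (adjusted p = 0.466 for each, limma). Without 1 library some of them passed the threshold. Lmo1 did so without wt line 2 (adjusted p = 0.0494), matΔ line 1 (0.0170) or matΔ line 2 (0.0233), Pax3 without matΔ line 1 (0.0184), and Skor1 and Nf1 without matΔ line 1 (0.0170) or matΔ line 2 (0.0233, all limma). An island at exactly 0% in several libraries has almost no measured spread, and its depth was unknown.

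Genes of the Wnt pathway were examined because the libraries were taken 12 h after its activation. Of 57 genes of ligands, receptors, inhibitors and effectors, 42 had an island with a value within 2 kb of a start, 46 islands in all. The genotypes were separated at 9 higher and 7 lower islands (19.6% and 15.2%, against 11.4% and 13.1% of all islands), none by 5 points. The median difference was 0.140 points, against 0 for all islands. Sfrp1, which encodes a secreted Wnt inhibitor, had the largest separated difference, at 3.24% and 2.56% in wt and 0% and 2.09% in matΔ. The coreceptor gene Lrp6 was at 0.232% and 0% in wt and at 1.92% and 0.442% in matΔ, and the receptor gene Fzd3 at 0.370% and 2.00% in wt and at 0% in both matΔ lines. Most islands of the list, 37 of 46, had a mean under 1%.

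Of the Wnt-responsive and NMP genes, 18 islands had a value, of which 2 were separated above and 3 below wild type (11.1% and 16.7%, against 11.4% and 13.1% of all islands), with a median of -0.0399 points. Cdx1, a direct Wnt target that patterns the trunk, was at 4.29% and 6% in wt and at 0% and 1.11% in matΔ, a difference of -4.59 points. The genotypes overlapped at Cdx1 at day 2, with 0% and 8.57% in wt and 0.909% and 1.82% in matΔ. Evx1, a homeobox gene of the posterior embryo, was at 0% in both wt lines and at 4.96% and 4.21% in matΔ, and it was looked up after its value was seen. Its genotypes also overlapped at day 2, with 2.68% and 3.13% in wt and 1.19% and 7.77% in matΔ. The Hox list had 22 islands with a median of -0.0359 points. Its largest separated difference was at the second Hoxd3 island, with 2.12% and 2.08% in wt and 2.73% and 4.69% in matΔ.

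The developmental transcription factors had 81 islands with values, from 68 of 90 genes. Of these, 16 were separated above and 9 below wild type (19.8% and 11.1%, against 11.4% and 13.1% of all islands). By at least 1 point 11 of the 81 were above and 4 below, larger shares than the 3.74% and 3.03% of all islands. These counts leave out the second Pax7 island (-8.50 points), which lies 4309 bases from the start and so outside the 2 kb window. The list was written with earlier results of these data known. Islands near 0 were less common in the list, with 45 of 81 at a mean under 1% against 6217 of all 7454 (83.4%). The part of level in these shares was not tested. The median difference of the list was 0 points, as for all islands. In the list 8 of 81 islands had an unadjusted p under 0.05 (limma), a larger share than the 4.29% of all islands tested. Besides Pax3, Gata2, En1 and Nkx2-5, these included Gsx1, a homeobox gene of the ventral forebrain and spinal cord, whose second island was at 0% in both wt lines and at 5.45% and 4% in matΔ. Foxd3, a factor of neural crest and pluripotent cells, was at 0% and 2.38% in wt and at 3.85% and 6.06% in matΔ. At day 2 the Foxd3 island was lower in matΔ, at 0% in both lines against 4.76% and 1.39% in wt. The genotypes overlapped at the second Gsx1 island at day 2, with a difference of -0.447 points.

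Pluripotency and epiblast genes had 11 islands, of which 1 was separated above and 2 below (9.09% and 18.2%, against 11.4% and 13.1% of all islands), with a median of -0.0207 points. Esrrb, a nuclear receptor of naive pluripotency, was the one above, at 2.08% and 5.15% in wt and 7.94% and 7.09% in matΔ. Germline genes had 7 islands with a median of -0.978 points, 1 separated above and 1 below (14.3% each, against 11.4% and 13.1% of all islands). Sycp1, which encodes a protein of the synaptonemal complex, was at 75% and 73.6% in wt and at 77.8% and 83.3% in matΔ. The 16 islands of the methylation machinery genes, which included Smchd1 itself, had a median of 0.120 points and lay between -0.368 and 0.859. Methylation values do not show the deletion of Smchd1, so they give no check of the genotype.

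Imprinted genes had 19 islands with values, of which 4 were separated above and 2 below wild type (21.1% and 10.5%, against 11.4% and 13.1% of all islands), with a median of 0.512 points. Besides Peg13, Phlda2, an imprinted gene of placental growth, was at 1.59% and 0% in wt and at 3.52% and 4.47% in matΔ, and Kcnk9, a potassium channel gene, at 3.95% and 4.17% in wt and at 6.25% and 5.36% in matΔ. The largest difference of the list, 8.94 points at Airn, was not separated, with 5.57% and 0.769% in wt and 20.2% and 4.05% in matΔ. Over the 19 islands the means were 1.65% and 2.16% in wt and 3.26% and 2.57% in matΔ. The imprinted islands with values thus held little methylation in wild type, and the differences are measured from that low level. The 4 islands of non-canonically imprinted genes were not separated and had a median of 0.305 points. Of 20 clustered protocadherin islands listed, 3 had values. None of the 3 was separated at day 2.5, and their median was 4.88 points. At day 2 the differences at Pcdhgb2, Pcdhgb5 and Pcdhgc3 were 14.5, 8.65 and -0.265 points. Only Pcdhgb2 was separated at day 2, at 10.3% in both wt lines and at 34.4% and 15.2% in matΔ.

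**Figure D5:**
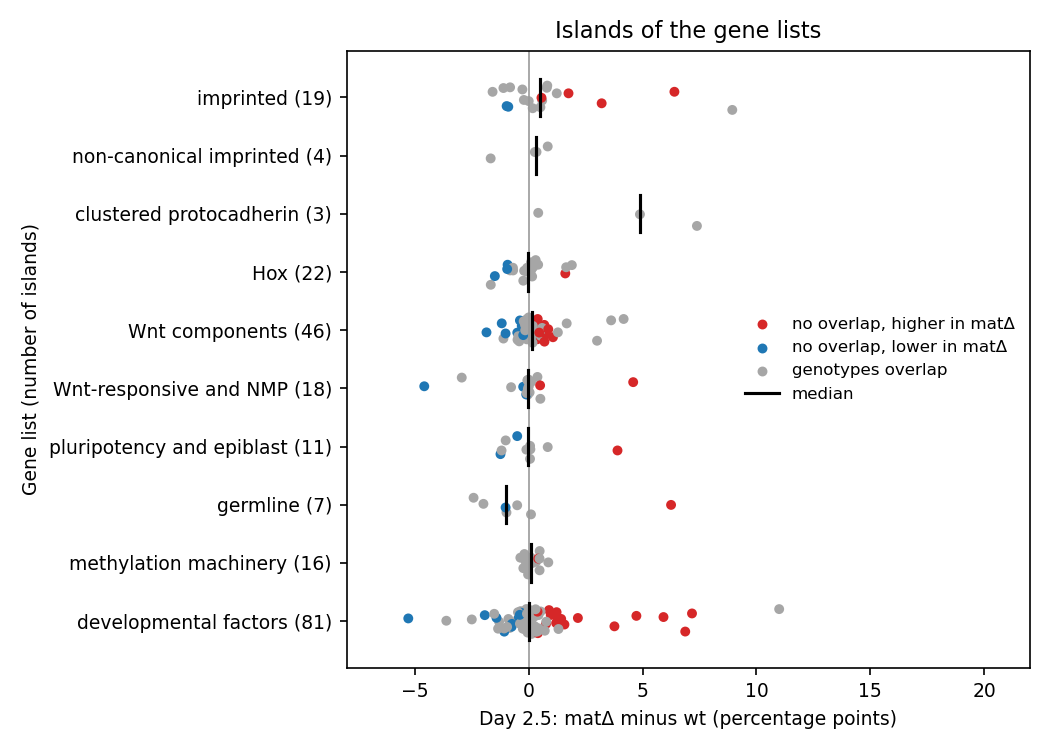
Difference between the genotypes at day 2.5 (matΔ minus wt, percentage points, x axis) for each island of 10 gene lists (y axis, number of islands in brackets). Red and blue points are islands at which both matΔ lines were above or below both wt lines, grey points overlap and black bars are list medians, which lie within 1 point of 0 in all lists except the 3 protocadherin islands.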

How the data were processed

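RRBS was performed on 8 libraries, from 2 Smchd1 wt and 2 Smchd1 matΔ mESC lines at days 2 and 2.5, grouped by genotype, day and line in the labels. Per the methods of the study and the submitters' processing notes, the authors trimmed reads with TrimGalore and Cutadapt 1.15, removed the diversity bases of the kit, mapped to GRCm38.p6 with Bismark 0.20.0 and computed island methylation in SeqMonk for islands with over 10 reads. The authors deposited 1 percent methylation value per island and library, not normalised between libraries. The Hox table held identical values for 46 of the islands, and its 4 mean columns were not used. A low read minimum makes single levels coarse and lets an island be at 0% by chance.

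Islands were annotated with GENCODE M21 on the same build. An island was named after the nearest start, with islands that share it numbered in genomic order, and was promoter (within 1 kb of a start), exonic, intronic or intergenic. It was separated when both libraries of one genotype exceeded both of the other. The fit used limma 3.58.1 (R 4.3.3) with a variance trend and 1 mean per group over 8 libraries and 7196 varying islands, two-sided, with Benjamini-Hochberg adjustment. Means over islands were compared by exact permutation (Python 3.11.15, numpy 2.4.6, pandas 2.3.3). For simulated data of the day 2.5 comparison, each island's values were shuffled over the libraries and 200 of 7196 islands were shifted. Shifts of 5, 10 and 20 points were recovered at 79%, 95.5% and 95.5%. Of the calls 10.7% were unshifted islands, so an adjusted p understates false calls. The shifted islands were drawn without regard to low level, and 83.4% of autosomal islands had a mean under 1%. The recovery therefore describes mostly islands near 0, and it was not measured apart for the more methylated islands.

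Islands named singly were the 12 largest positive and 8 largest negative separated differences, the 5 smallest limma p-values, islands separated in the same direction by at least 5 points at both days, and the largest separated difference of at least 1 point in each of 10 gene lists. The members, lists and rules were chosen with earlier results of these data known, and other islands named were picked after their values were seen. The values of 1 of the 60 islands are not reported here. Alternatives were a log2 scale, a minimum mean of 1%, scaling of libraries to the same mean, robust moderation, the line number as a block, the day 2.5 libraries alone, other thresholds and windows, and leaving out each library.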

Additional observations from a re-analysis of the deposited data

Results flagged for a closer look

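At 7 of the 60 islands the genotypes were separated at both days in opposite directions, so the sign of the difference changed between day 2 and day 2.5. None of these changes passed the adjusted test of the difference itself (limma interaction, adjusted p = 0.867 for each). Over all islands 241 (3.23%) were separated in opposite directions. Those 241 come from the 850 higher and 975 lower islands separated at day 2.5. The 3.23% counts every island, so it is not the like share for the 7 of 60.

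The interaction, that is the difference at day 2.5 minus that at day 2, was -20.95 points at Rasgef1a, where the wt lines were at 0% and 5.56% and the matΔ lines at 16.7% and 6.90% at day 2. It was 9.21 points at Pax3. At Scnn1b, an epithelial sodium channel gene, it was 19.8 points, with 8.18% and 21.3% in wt and 1.43% and 6.67% in matΔ at day 2 against 4% and 2% in wt and 16% and 8.24% in matΔ at day 2.5. At Oprd1 it was 14.2 points, with 8.69% and 10.3% in wt and 4.76% and 3.24% in matΔ at day 2. At Hsd17b7, a gene of steroid and cholesterol synthesis, it was 10.8 points, with 18.5% and 18.4% in wt at day 2 against 7.46% and 4.08% at day 2.5. At Ascl5 it was -10.6 points, with 9.44% and 7.58% in wt and 11.8% and 14.6% in matΔ at day 2. At Rin3 it was -9.25 points, with 6.67% and 11.8% in wt and 12% and 12.6% in matΔ at day 2.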

How the results depend on the processing

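No island passed at day 2.5 on the log2 scale, with a minimum mean of 1%, after scaling, with robust moderation or with the day 2.5 libraries alone. An unadjusted p under 0.05 (limma) was found at 54 of 1243 islands with the minimum mean and at 212 of 6716 with day 2.5 alone. In the other fits it was found at 287 to 335 of 7196. Leaving out libraries gave 73 to 121 calls at day 2.5 (87 without wt line 1, 121 without wt line 2, 91 without matΔ line 1, 73 without matΔ line 2), 88 to 95 at day 2 when a day 2 library was left out, and 0 to 117 for the interaction (78 without wt line 1 of day 2, 117 without wt line 2 of day 2.5). Each of these fits tested 7105 to 7149 islands, and the lone library is then assumed to vary like the other groups. Of the calls at day 2.5, 21 were shared by the fits without a wt line and 15 by those without a matΔ line.

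The same line number did not mark a pair across the genotypes (r = -0.00277 between the genotypes' line differences at day 2.5). The fit with the line number as a replicate block within each day gave 0 calls, with 246 unadjusted p under 0.05 and a smallest adjusted p of 0.970 (limma). That day 2 and day 2.5 share each line was not modelled in any fit.

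The 60 separated islands became 219 at 2 points, 13 at 10 points and 115 to 164 without 1 library (145, 115, 119 and 164 without wt line 1, wt line 2, matΔ line 1 and matΔ line 2). Scaling gave 56, with 33 higher and 23 lower in place of 42 and 18. The promoter difference of 0.0264 points was -0.0529 with the median over islands, -0.00619 after scaling and -0.0195 to 0.0722 without 1 library. The exonic difference ranged from -0.0763, without matΔ line 1, to 1.96, and the intronic one from -0.891 to 0.220, without matΔ line 2. The intergenic difference was -0.113 after scaling. The causes were not tested. Of 501 alternative values of islands named by the rules 493 kept their direction and side of the threshold. The other 8 are those of Lmo1, Pax3, Skor1 and Nf1 given above. All islands named by the rules were separated at day 2.5, so leaving out a library could not reverse their direction. The agreement was thus largely fixed in advance and is no measure of robustness. With a window of 5 kb in place of 2 kb the 20 counts of separated list islands stayed within 1.5 times.

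With 2 lines a group, an unknown depth and a read minimum of 10, single islands at low levels are imprecise to a degree these values do not show.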
